A study of Mus musculus with 24 samples.

Results

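Polysome-bound RNA was set against total RNA of mutant mouse dendritic cells that had received LPS and no kinase inhibitor. These are 6 of the 24 libraries of the series, chosen by their labels: 3 polysome libraries (pools E, F and GH) and 3 total RNA libraries (pools E, F and G). The mutant genotype is labelled LCH, and the series title names BRAF-V600E, the activated kinase of Langerhans cell histiocytosis. The labels used here do not state which promoter or Cre line drives the mutant allele, or how many animals a pool holds. Bone marrow was grown for 7 days in medium rich in GM-CSF, which yields bone marrow-derived dendritic cells (BMDCs). All cells of both fractions received LPS at 100 ug/mL (the unit as labelled) for 3 h and then a cycloheximide pulse at 100 ug/mL, which holds ribosomes on their mRNAs. The polysome RNA came from 500 uL of those gradient fractions that hold more than 2 polysomes. Total and polysome RNA are called paired in the series' text, which counts the pools as biological repeats, and polysome pool GH was set beside total RNA pool G. Whether GH also holds cells that are absent from total RNA pool G is not stated. Whether pools are separate animals is not stated, so p-values measure the spread between these pools. A second set of 6 LCH libraries, from cells given the BRAF-V600E inhibitor for 1 h before LPS, is used in 1 comparison at the end.

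An mRNA that is being translated carries several ribosomes at once and sediments with the heavy fractions of a sucrose gradient. An mRNA that is stored, repressed or still nuclear stays in lighter fractions, so the ratio of polysome to total RNA describes how an mRNA is distributed and not how much of it is made. In LPS-treated dendritic cells, cytokine and chemokine mRNAs are made in large amounts within hours, and many carry AU-rich elements through which RNA-binding proteins govern both decay and translation. Ribosomal protein and elongation factor mRNAs carry a run of pyrimidines at their 5′ end, the TOP element, through which mTOR governs their translation.

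The polysome libraries held 11526239, 9188923 and 12972823 counts and the total RNA libraries 19879385, 19046640 and 27067760 counts (pools E, F and G in that order). Of the polysome counts, 27.9%, 65.1% and 24.98% fell on Rn18s, Lars2, mt-Rnr1 and mt-Rnr2, against 1.70% to 1.77% in total RNA. These genes were left out before scaling, which left 3206636 counts in the pool F polysome library and 8313478 to 26604080 in the other 5. Pool G stood apart: 27571 gene models had a count in its polysome library and 37388 in its total RNA library, against 11093 to 17407 in the libraries of pools E and F. Each library's levels in CPM, counts scaled to library size, correlated with those of the other fraction of its pool with a Spearman coefficient of 0.845 to 0.897 across 13452 genes.

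Dendritic cell identity was checked on marker mRNAs in both fractions. H2-Aa, a chain of MHC class II, stood at 4498 to 8841 CPM on polysomes and at 1973 to 2547 CPM in total RNA, and all 19 dendritic cell markers on the list passed the filter on low counts. Of 11 lymphocyte and plasmacytoid markers, 3 passed the filter, and of 11 erythroid and stromal markers, 4 did. Granulocyte mRNAs were present: the summed level of the 19 neutrophil and granulocyte markers was 1354 to 2159 CPM on polysomes and 597 to 797 CPM in total RNA. So were macrophage and monocyte mRNAs, of which all 17 listed passed the filter, with a summed level of 5190 to 11339 CPM on polysomes and 6427 to 8886 CPM in total RNA. Bulk RNA cannot tell fewer cells of a type from less RNA per cell.

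Of 13452 genes tested, 4818 (35.8%) differed between polysome and total RNA at an adjusted p under 0.05 (edgeR's quasi-likelihood test with the pool as a block). A gene past this threshold is referred to as called. Among 12128 protein-coding genes tested, 2253 (18.6%) were called higher on polysomes and 2298 (18.9%) lower, and 7577 did not pass. Counts of called members in the gene lists below are read beside these shares. The log2 change exceeded 1 in 1675 of the genes called higher and in 1637 of those called lower. It exceeded 2 in 629 and 364 of them. The sign was the same in all 3 pools for 2246 of the genes called higher and 2297 of those called lower. Without the filter on low counts the calls became 1733 higher and 3346 lower, so that genes called higher were 34.1% of calls in place of 49.5%. A log2 value of 0 here means a share of the polysome RNA equal to the share of total RNA after scaling, not an equal number of molecules, and the median protein-coding gene stood at -0.21.

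**Figure D1:**
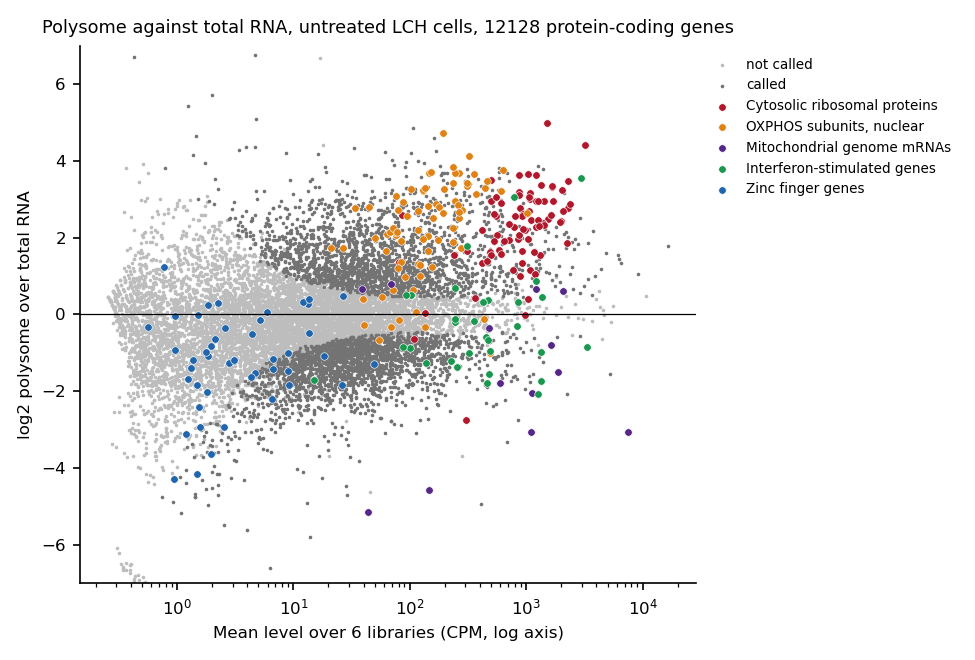
Each point is 1 of 12128 protein-coding genes, with its mean level over the 6 libraries (CPM, log axis) across and its log2 polysome over total RNA upward. Called genes are dark grey and members of 5 gene lists are coloured. The ribosomal protein and nuclear OXPHOS genes lie mostly above 2 and the mitochondrial genome mRNAs mostly below 0. Beyond the drawn range of 7 either side of 0 lay 4 genes above and 26 below.

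Ribosomal protein mRNAs stood out on polysomes. Of 81 tested, 75 were called higher and 0 lower, with a median log2 polysome over total of 2.40, where the median of all protein-coding genes tested was -0.21. Their summed level was 120430 to 158227 CPM in the polysome libraries, against 25837 to 29337 CPM in total RNA. Within single pools the median was 2.43, 2.57 and 2.31. Start sites of 6 mRNAs are shown because the TOP run is the element by which this class is known: 4 have a run and 2 have none. A run did not go with a high place in every gene. Map3k3, low on polysomes, has one. Ndufa5, Tmem160 and Polr2l, all high on polysomes, and the ribosomal protein gene Rps28 have none. The run of Braf, also low on polysomes, lies wholly before the annotated start. So do the runs of the ribosomal protein genes Rpl37, Rps15a and Rpl13. Each line gives 10 bases before and 20 bases after the annotated start, from RefSeq on GRCm38.p6, 5′ to 3′ on the gene's strand. Capitals mark the longest run of at least 6 C or T that touches the 10 bases either side of the start.
Rpl38 (chr11:114668570-114668599, plus strand): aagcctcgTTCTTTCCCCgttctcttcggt
Rps27 (chr3:90213629-90213658, minus strand): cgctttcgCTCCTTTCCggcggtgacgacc
Eef1a1 (chr9:78481705-78481734, minus strand): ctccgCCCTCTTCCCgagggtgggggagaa
Cox7c (chr13:86046776-86046805, minus strand): tgtaactcccaTCTTCCCTTTCggtcttcg
Il12b (chr11:44400053-44400082, plus strand): ccaaggcagcagaaggaacagtgggtgtcc
Tlr9 (chr9:106222588-106222617, plus strand): taagctgtagtgaaagtgtcacttcctcaa

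Such a run was found at the start of 63.3% of the 60 ribosomal protein genes with an annotated start. It was found at 29.2% of all annotated starts and at 33.4% of the 9706 tested protein-coding genes with one. Counted on the opposite strand (A or G runs of that length), the shares were 11.7% of the ribosomal protein genes and 32.4% of all starts. Ribosomal protein genes with a run had a median log2 difference of 2.56 and those without one 2.30. The order was the same for nuclear OXPHOS subunits (2.84 with a run and 2.52 without) and initiation factors (0.57 and 0.40). It was also the same for other genes spanning up to 5000 bases (1.16 and 0.90). The order was the other way for other TOP mRNAs (0.87 with a run and 1.34 without) and proteasome subunits (0.89 and 1.99). So it was for mitochondrial ribosomal proteins (1.42 and 1.51) and chemokines (0.06 and 0.43). Over all tested protein-coding genes with a start the corresponding medians were -0.18 and -0.20. A match is a description of the letters at an annotated start and does not show that an mRNA begins there. Runs that lie wholly before the annotated start, outside the annotated mRNA, count as matches in these shares and medians.

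Rpl38, a protein of the large subunit, had 2234, 4748 and 1838 CPM on polysomes and 87.0, 81.8 and 86.6 CPM in total RNA (pools E, F and G). Every polysome library was above every total RNA library, and pool F was the highest on polysomes. The log2 difference was 4.98 ± 0.32 (SE, adjusted p = 2.23e-05, edgeR), the highest of the ribosomal protein genes. Rpl37, also of the large subunit, had 1917, 2320 and 1554 CPM on polysomes and 157, 144 and 151 CPM in total RNA, with a log2 difference of 3.66 ± 0.19 (adjusted p = 7.45e-06, edgeR). Fau, whose product is cleaved into a small-subunit protein, averaged 3025 ± 438 CPM on polysomes and 296 ± 26.2 CPM in total RNA (SD, n = 3 each). Rps27, a small-subunit protein whose start is shown above, averaged 467 ± 65.6 CPM on polysomes and 148 ± 8.24 CPM in total RNA and had a log2 difference of 1.65 ± 0.17.

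Among the largest differences were gene models that share sequence, and these values are uncertain. Rplp2, a stalk protein of the ribosome, had 5017, 9021 and 4172 CPM on polysomes and 285, 260 and 268 CPM in total RNA. Its copy Rplp2-ps1 had 212 to 1524 CPM on polysomes and no count in any total RNA library, and Wdr89 overlaps that copy on the same strand. Rpl10 was low on polysomes, with 137, 8.54 and 165 CPM against 565, 485 and 464 CPM in total RNA, and was not called (adjusted p = 0.185, edgeR), though it was without pool F (log2 -1.76). Its copy Rpl10-ps3 had 863 to 1397 CPM on polysomes and no count in total RNA. Added together, Rpl10 and Rpl10-ps3 averaged 1248 ± 341 CPM on polysomes and 504 ± 53.1 CPM in total RNA (SD, n = 3 each), the opposite direction from Rpl10 alone. How the counting divided reads between copies was not tested, nor was whether it did so alike in both fractions. A difference in preparation or counting that goes with the fraction cannot be told apart from an mRNA's distribution here, for any gene.

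The other mRNAs known for a TOP element were mixed. Of 19 tested, 12 were called higher and 1 lower (median 0.74). The high ones included subunits of the elongation factor eEF1B: Eef1d had 595, 741 and 481 CPM on polysomes and 60.3, 54.7 and 56.3 CPM in total RNA, with no overlap between the groups (log2 3.38 ± 0.19, adjusted p = 7.73e-06, edgeR). Eef1b2, another eEF1B subunit, had a log2 difference of 2.97 ± 0.17. Naca and Btf3, the subunits of the nascent polypeptide-associated complex, had log2 differences of 2.60 ± 0.16 and 2.65 ± 0.16. The abundant elongation factor mRNA Eef1a1 did not pass, despite the pyrimidine run shown above: it had 5863, 3393 and 4997 CPM on polysomes and 4710, 4136 and 4083 CPM in total RNA (log2 0.11 ± 0.17, adjusted p = 0.692, edgeR). Eef2, which moves the ribosome along the mRNA, had a log2 difference of 0.17 ± 0.18 and did not pass either. Without pool F both were called higher, at 0.30 and 0.39 on the log2 scale. The member called lower was Pabpc1, the cytoplasmic poly(A)-binding protein, at 528 ± 101 CPM on polysomes and 848 ± 29.1 CPM in total RNA (log2 -0.70 ± 0.16), a call that was lost without pool E (adjusted p = 0.0598, edgeR). Its sign changed to 0.26 when the authors' gene-wise scaling factors were used, which are the ratios of their raw to their normalized counts.

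Of 39 initiation factor mRNAs, 17 were called higher and 5 lower (median 0.40), or 23 and 8 without pool F. Higher were Eif3k, a subunit of eIF3, with 638, 600 and 515 CPM on polysomes and 88.4, 75.1 and 76.9 CPM in total RNA (log2 2.86 ± 0.16), and Eif1, which takes part in start codon choice (log2 2.23 ± 0.16). The scaffold Eif4g1 had a log2 difference of 0.08 ± 0.15 and did not pass. Eif2b2, a subunit of the exchange factor for eIF2, was lower at 8.91 ± 1.59 CPM on polysomes and 31.1 ± 2.01 CPM in total RNA (SD, n = 3 each).

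**Figure D2:**
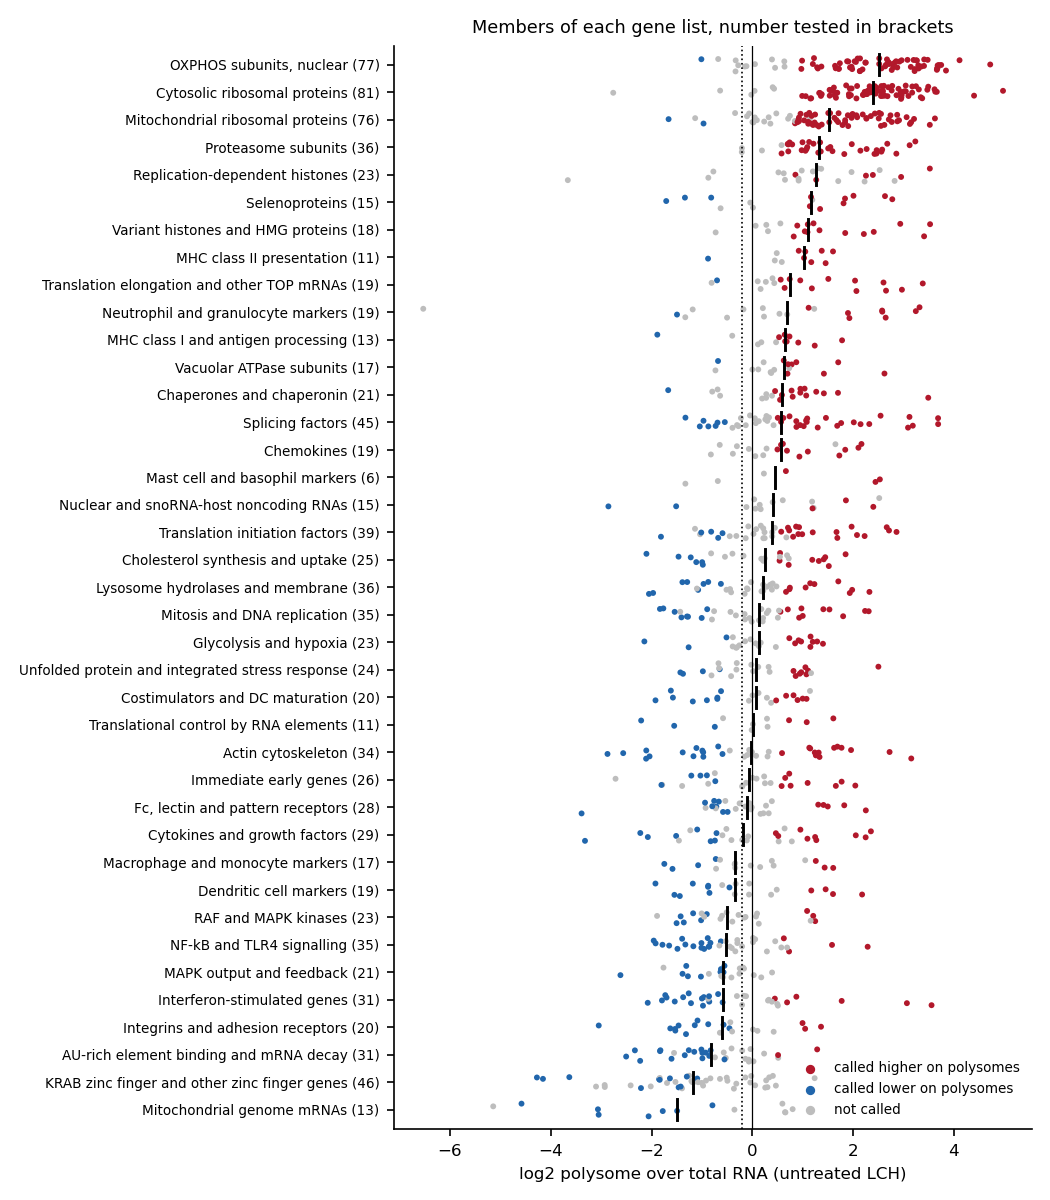
Each row is 1 gene list with the number of members tested, each point 1 member's log2 polysome over total RNA, and each black bar the list's median. Red points were called higher on polysomes, blue points lower and grey points not called; the dotted line is the median of all protein-coding genes tested. Lists with under 6 members tested are not drawn. Nuclear OXPHOS, ribosomal and proteasome lists lie to the right, and the mitochondrial genome, zinc finger and mRNA decay lists to the left.

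The respiratory chain divided by genome. Of 77 OXPHOS subunits encoded in the nucleus, 65 were called higher on polysomes and 1 lower, with a median log2 difference of 2.52. Of the 13 mRNAs of the mitochondrial genome, which are translated on the mitochondrion's own ribosomes, 0 were called higher and 7 lower (median -1.49). Their summed level was 6435, 15415 and 7055 CPM on polysomes, against 21740, 31011 and 25017 CPM in total RNA. With pool E or pool G left out, 3 mitochondrial mRNAs were called higher. Cox5a, a nuclear subunit of complex IV, had 1169, 1456 and 928 CPM on polysomes and 91.6, 85.3 and 83.1 CPM in total RNA (log2 3.75 ± 0.19, adjusted p = 7.45e-06, edgeR). The mitochondrial subunit mt-Co1 of the same complex had 1312, 2439 and 1222 CPM on polysomes and 11044, 15963 and 12577 CPM in total RNA (log2 -3.05 ± 0.19, adjusted p = 8.72e-06, edgeR). The groups did not overlap for either gene, and the 2 genes lay on opposite sides of 0 in each pool.

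Small accessory subunits of complex I were among the highest of all genes. Ndufa5 had 302, 582 and 226 CPM on polysomes and 13.8, 11.5 and 13.2 CPM in total RNA (log2 4.72 ± 0.33, adjusted p = 3.6e-05, edgeR). Ndufa3 averaged 610 ± 264 CPM on polysomes and 33.2 ± 1.45 CPM in total RNA. Cox7c, a small subunit of complex IV with a pyrimidine run at its start, averaged 564 ± 142 CPM on polysomes and 51.9 ± 0.90 CPM in total RNA. The exception was Atp5b, the catalytic subunit of ATP synthase, which was lower at 385, 181 and 451 CPM on polysomes and 684, 642 and 597 CPM in total RNA. Its log2 difference of -1.01 ± 0.26 became 1.53 with the authors' gene-wise scaling factors. Of the mitochondrial ribosome's nuclear-encoded proteins, 58 of 76 were called higher and 2 lower (median 1.52), among them Mrps28 at 77.5 ± 17.97 CPM on polysomes and 6.17 ± 0.635 CPM in total RNA (SD, n = 3 each).

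The proteasome, chaperone, splicing factor, variant histone and selenoprotein lists also held more calls above than below. Proteasome subunits were called higher in 32 of 36 cases and lower in 0 (median 1.33). Psmb10, a catalytic subunit of the immunoproteasome, had 885, 1242 and 994 CPM on polysomes and 96.2, 103 and 132 CPM in total RNA (log2 3.24 ± 0.19, adjusted p = 8.24e-06, edgeR). Chaperones numbered 13 higher and 1 lower of 21 tested (median 0.59; Hspb1 did not pass the filter), led by Hspe1, the mitochondrial co-chaperonin, at 353 ± 89.1 CPM on polysomes and 30.7 ± 1.10 CPM in total RNA. Splicing factors numbered 24 higher and 7 lower of 45 (median 0.57), and the count of lower calls was 13 without pool F, 3 without pool E and 4 without pool G. The core spliceosomal proteins Snrpd1 and Snrpe had log2 differences of 3.69 ± 0.19 and 3.69 ± 0.21. Variant histones and HMG proteins numbered 13 higher and 0 lower of 18 (median 1.10), with Hmgb1, a chromatin protein and alarmin, at 1051 ± 147 CPM on polysomes and 197 ± 24.9 CPM in total RNA. Selenoprotein mRNAs, in which a stop codon is read as selenocysteine, numbered 8 higher and 3 lower of 15 (median 1.17). Gpx4, which reduces lipid peroxides, was at 799 ± 256 CPM on polysomes and 113 ± 9.84 CPM in total RNA, whereas Txnrd1, a thioredoxin reductase, was at 201 ± 60.04 CPM on polysomes and 637 ± 37.6 CPM in total RNA.

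Tnf, the cytokine named in the study's title, did not pass the test. It had 2554, 2644 and 3741 CPM on polysomes and 2623, 3314 and 3644 CPM in total RNA, and the groups overlapped. The log2 difference was -0.11 ± 0.16 (adjusted p = 0.65, edgeR), beside a protein-coding median of -0.21. Il1b had 5003, 4528 and 5333 CPM on polysomes and 5673, 5440 and 5930 CPM in total RNA (log2 -0.20 ± 0.15), and Il6 averaged 658 ± 232 CPM on polysomes and 909 ± 148 CPM in total RNA (log2 -0.51 ± 0.18, adjusted p = 0.0575, edgeR). Neither passed the threshold, but Il6 did without pool F (log2 -0.29, adjusted p = 0.003, edgeR) and in DESeq2 (adjusted p = 0.0156).

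The cytokine list as a whole held differences in both directions: of 29 tested, 9 were called higher and 8 lower (median -0.18). Il20, the other listed member, did not pass the filter. Without pool E the calls were 7 higher and 5 lower, and without the filter on low counts 7 higher and 13 lower. Il12b, the p40 chain shared by IL-12 and IL-23, was the lowest, with 129, 58.7 and 230 CPM on polysomes and 1192, 1172 and 1316 CPM in total RNA (log2 -3.32 ± 0.35, adjusted p = 0.00039, edgeR). Il1a, which acts as an alarmin, had 928, 491 and 1286 CPM on polysomes and 3062, 3676 and 3944 CPM in total RNA (log2 -2.07 ± 0.27, adjusted p = 0.000658, edgeR). Neither gene's groups overlapped, and pool F was the lowest polysome library for both. Tnfsf15, a TNF family ligand, averaged 230 ± 20.7 CPM on polysomes and 1073 ± 106 CPM in total RNA (SD, n = 3 each).

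IL-12 family chains lay on both sides. Ebi3, the beta chain of IL-27, had 425, 447 and 481 CPM on polysomes and 116, 96.7 and 113 CPM in total RNA (log2 2.05 ± 0.16, adjusted p = 2.46e-05, edgeR). Il27, which encodes its partner chain p28, had 39.6, 39.5 and 119 CPM on polysomes and 111, 146 and 271 CPM in total RNA (log2 -1.51 ± 0.18, adjusted p = 0.000304, edgeR). The Il27 groups overlapped because both fractions of pool G were high, while each pool's polysome value was below its own total RNA value, and the call was lost without the pool block (adjusted p = 0.0661, edgeR). Il23a, the p19 chain of IL-23, averaged 55.1 ± 5.98 CPM on polysomes and 28.4 ± 0.32 CPM in total RNA, opposite to its partner chain Il12b. Ifnb1, the type I interferon that LPS induces through TRIF, had 23.7, 33.8 and 82.5 CPM on polysomes and 5.76, 7.05 and 15.3 CPM in total RNA (log2 2.25 ± 0.22, adjusted p = 7.94e-05, edgeR). Csf2, which encodes GM-CSF, had 60.7, 60.5 and 39.3 CPM on polysomes and 24.1, 32.5 and 19.0 CPM in total RNA, with no overlap.

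Chemokine mRNAs were called higher or did not pass. Of 19 tested, 10 were called higher and 0 lower (median 0.57). The calls were 6 higher and 1 lower without pool E or without pool G, and 13 higher and 1 lower without pool F. Ccl4, a macrophage inflammatory protein, had 5215, 5751 and 7321 CPM on polysomes and 1049, 1374 and 1680 CPM in total RNA (log2 2.17 ± 0.16, adjusted p = 1.67e-05, edgeR). Ccl3, another macrophage inflammatory protein, differed less, at 3506 ± 1062 CPM on polysomes and 2318 ± 446 CPM in total RNA (log2 0.57 ± 0.19, adjusted p = 0.0402, edgeR), and was not called without pool E (adjusted p = 0.416) or without pool G (adjusted p = 0.194). Ccl17, a ligand of CCR4 made by dendritic cells, had 4072, 2074 and 4223 CPM on polysomes and 808, 647 and 855 CPM in total RNA (log2 2.11 ± 0.19). The monocyte chemoattractants Ccl7 and Ccl12 had log2 differences of 1.84 ± 0.17 and 1.73 ± 0.18.

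**Figure D3:**
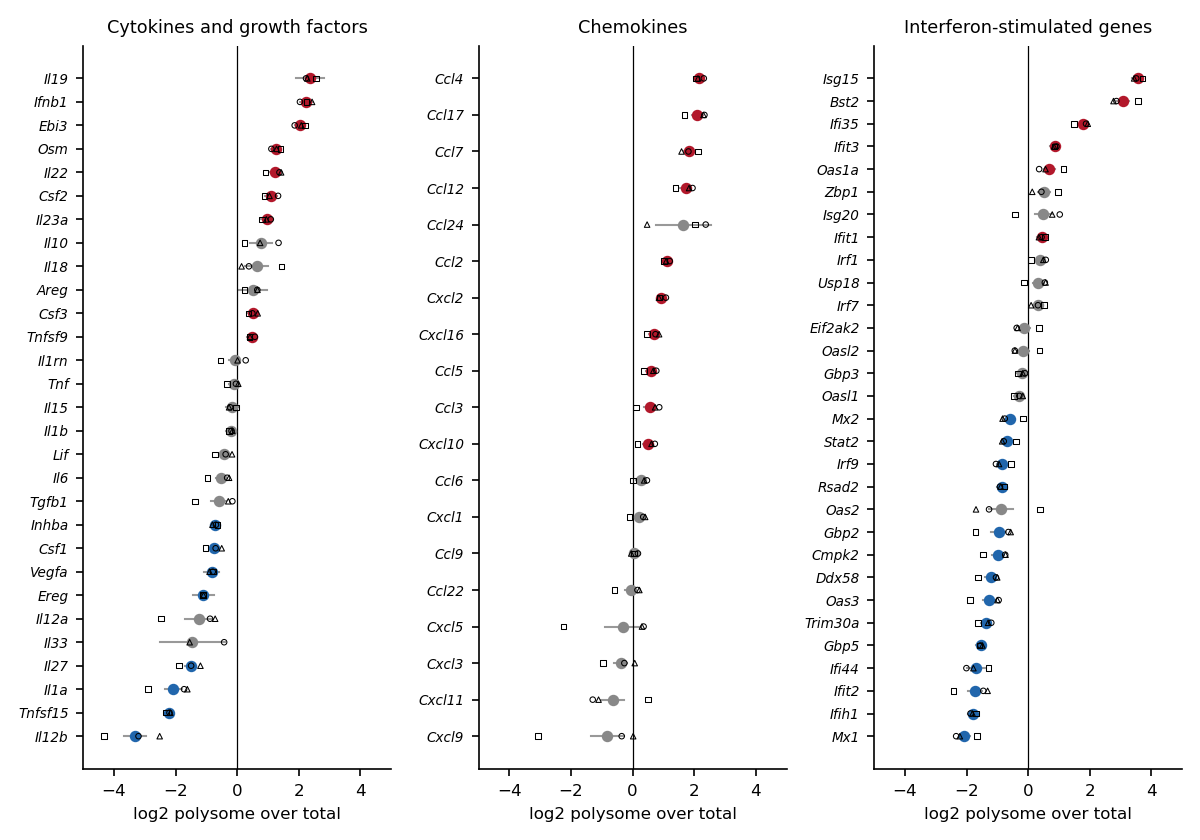
Rows are mRNAs of 3 lists, ordered by log2 polysome over total RNA; large points are the fitted values with bars of 1 SE, red called higher, blue called lower and grey not called. Small open symbols are the 3 pools (circle E, square F, triangle G), without pools in which a fraction had no count. Cytokines and interferon-stimulated genes spread to both sides, and the called chemokines lie to the right.

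Interferon-stimulated mRNAs were more often lower than higher. Of 31 tested, 15 were called lower and 6 higher (median -0.59), or 19 lower and 11 higher without pool F, and 10 lower and 3 higher without the pool block. Isg15, a ubiquitin-like modifier, had 4523, 5560 and 6193 CPM on polysomes and 396, 423 and 569 CPM in total RNA (log2 3.56 ± 0.17, adjusted p = 7.45e-06, edgeR). Mx1, a dynamin-like GTPase, had 335, 529 and 588 CPM on polysomes and 1694, 1679 and 2736 CPM in total RNA (log2 -2.08 ± 0.19, adjusted p = 4.88e-05, edgeR). Both genes' groups were apart, and in opposite directions. Bst2, the membrane tether also known as tetherin, was higher (log2 3.07 ± 0.21), whereas Ifih1, the double-stranded RNA sensor MDA5, was lower (log2 -1.79 ± 0.15).

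**Figure D4:**
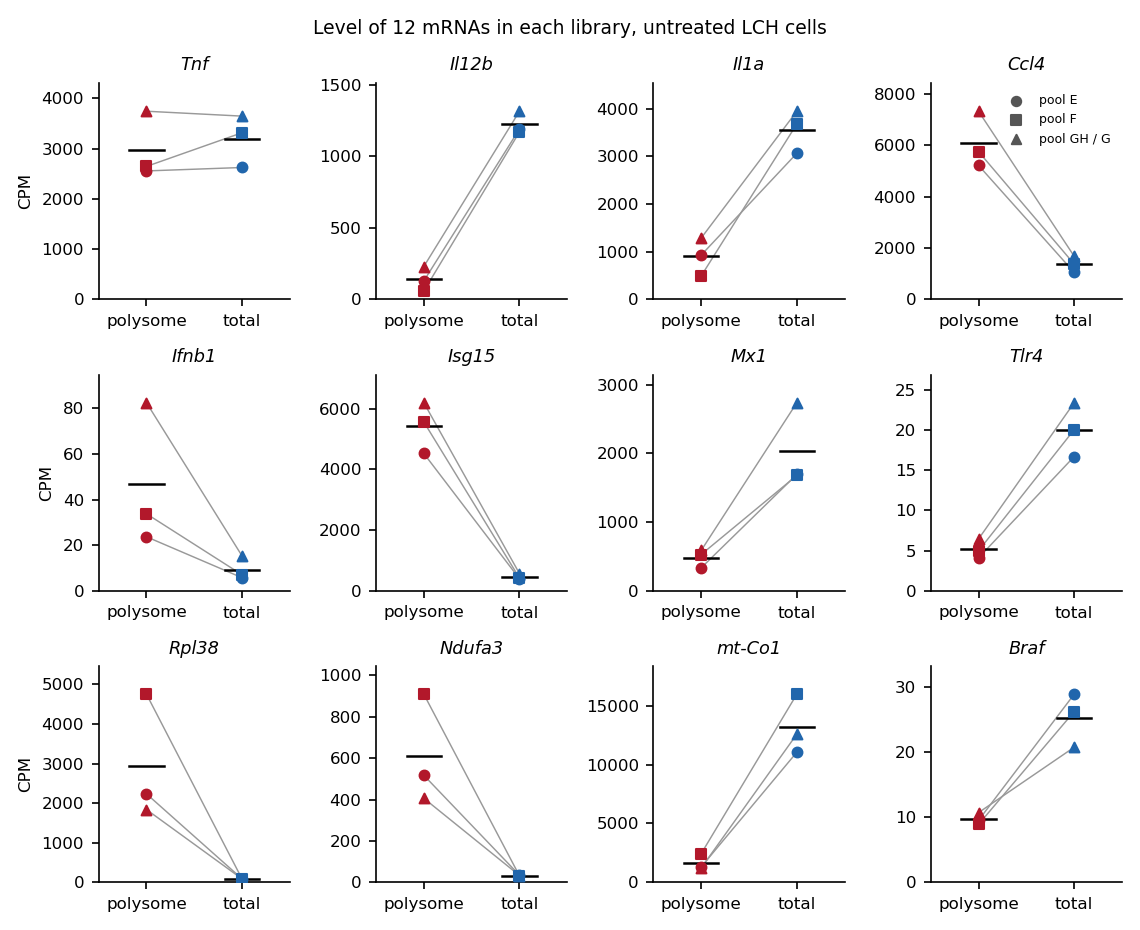
The level of 12 mRNAs in each library (CPM, linear axes from 0), polysome libraries in red and total RNA libraries in blue, with a grey line joining the fractions of 1 pool and a black bar at the mean of 3 libraries. Tnf overlaps between the fractions, and for each of the other 11 mRNAs every polysome library lies on 1 side of every total RNA library.

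More mRNAs of the LPS signalling pathway were called lower on polysomes than higher. Of 35 NF-kB and TLR4 pathway mRNAs, 16 were called lower and 4 higher (median -0.52), and 15 did not pass. Without pool E the calls were 13 lower and 2 higher. Nfkb1, which encodes p105 and p50, had 208, 170 and 232 CPM on polysomes and 721, 660 and 703 CPM in total RNA (log2 -1.78 ± 0.16, adjusted p = 5.13e-05, edgeR). Its inhibitor Nfkbia, which encodes IkBa, had 1642, 2872 and 1753 CPM on polysomes and 632, 664 and 730 CPM in total RNA (log2 1.58 ± 0.20, adjusted p = 0.000366, edgeR). For both genes the groups were apart. Nfkbiz, the nuclear IkB protein needed for secondary response genes, and Rel, the NF-kB subunit c-Rel, were lower, with log2 differences of -1.65 ± 0.16 and -1.49 ± 0.16. The LPS receptor divided: Tlr4 averaged 5.18 ± 1.18 CPM on polysomes and 20.02 ± 3.34 CPM in total RNA, and its co-receptor Ly96, known as MD-2, 19.0 ± 4.30 CPM on polysomes and 3.88 ± 0.975 CPM in total RNA. Tlr9, the endosomal DNA sensor, was the lowest of the pattern receptors at 5.27, 3.20 and 6.96 CPM on polysomes and 57.4, 45.7 and 58.7 CPM in total RNA (log2 -3.39 ± 0.25, adjusted p = 1.83e-05, edgeR).

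Of 31 regulators of mRNA decay tested, 16 were called lower and 2 higher (median -0.83). Zfp36l1, an AU-rich element-binding protein that recruits deadenylases, had 91.3, 37.0 and 77.1 CPM on polysomes and 489, 330 and 308 CPM in total RNA (log2 -2.50 ± 0.23, adjusted p = 7.42e-05, edgeR). Zc3h12a, the endonuclease Regnase-1, had 51.0, 29.9 and 53.2 CPM on polysomes and 203, 223 and 193 CPM in total RNA (log2 -2.23 ± 0.23, adjusted p = 0.00011, edgeR). Zfp36, which encodes tristetraprolin and targets the Tnf mRNA, differed less, with a log2 difference of -0.55 ± 0.18 (adjusted p = 0.0444, edgeR). The 2 called higher were Hnrnpd (log2 1.29 ± 0.18), which encodes AUF1, and Elavl1 (log2 0.51 ± 0.17), which encodes HuR, and both were chosen after their values were seen. Without pool E neither Zfp36 (adjusted p = 0.147, edgeR) nor Elavl1 (adjusted p = 0.361, edgeR) was called, and without pool G neither was either (adjusted p = 0.0616 and 0.0703, edgeR).

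The mutant kinase's own pathway was measured at several levels. Braf itself had 9.52, 8.90 and 10.7 CPM on polysomes and 28.9, 26.2 and 20.7 CPM in total RNA, with no overlap (log2 -1.36 ± 0.27, adjusted p = 0.00456, edgeR). A gene-level count does not tell the mutant from the normal allele. Of 23 RAF and MAPK kinase mRNAs, 6 were called lower and 3 higher (median -0.51), or 12 and 3 without the filter on low counts and 8 and 5 with the authors' gene-wise factors. Map2k1 and Map2k2, the kinases MEK1 and MEK2, lay on opposite sides, at 75.9 ± 36.4 CPM on polysomes and 160 ± 17.0 CPM in total RNA for Map2k1 and at 140 ± 20.5 CPM on polysomes and 60.3 ± 2.11 CPM in total RNA for Map2k2. Mapk14, the stress kinase p38 alpha, averaged 27.0 ± 0.62 CPM on polysomes and 77.1 ± 9.71 CPM in total RNA. Of 21 output and feedback genes of the pathway, 9 were called lower and 0 higher (median -0.58), but 3 or 4 lower without pool E, without pool G or without the pool block, and 5 with the gene-wise factors. Dusp1, a MAPK phosphatase, averaged 25.8 ± 8.02 CPM on polysomes and 61.4 ± 13.9 CPM in total RNA. Immediate early mRNAs lay on both sides, with 8 higher and 5 lower of 26 (median -0.06), or 3 higher and 2 lower without pool E and 5 and 4 without pool G. Jund, an AP-1 subunit encoded by a gene without introns, had 817, 942 and 598 CPM on polysomes and 201, 183 and 178 CPM in total RNA (log2 2.04 ± 0.18), and Klf6, a zinc finger factor, averaged 239 ± 59.9 CPM on polysomes and 551 ± 110 CPM in total RNA.

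Most antigen presentation mRNAs were called higher, with exceptions. Of 11 MHC class II pathway mRNAs, 7 were called higher and 1 lower (median 1.03), and of 13 MHC class I pathway mRNAs, 8 were called higher and 1 lower (median 0.64), and the rest did not pass. Without pool E or without pool G, 3 of the 13 class I mRNAs were called higher, a share near that over all protein-coding genes (18.6%). H2-Aa had 8841, 4498 and 8642 CPM on polysomes and 2447, 1973 and 2547 CPM in total RNA (log2 1.60 ± 0.18, adjusted p = 0.000198, edgeR). The members called lower were the transactivators: Ciita, of class II genes, averaged 137 ± 9.03 CPM on polysomes and 253 ± 37.7 CPM in total RNA (not called without pool E, adjusted p = 0.0583, edgeR), and Nlrc5, of class I genes, 42.5 ± 22.6 CPM on polysomes and 151 ± 74.7 CPM in total RNA. Costimulators and maturation genes were divided, with 6 higher and 8 lower of 20 (median 0.06), and 2 higher and 4 lower without pool E. On the list of 19 dendritic cell markers, 4 were called higher and 8 lower (median -0.35). Cd40, the receptor for T cell help, was at 1119 ± 250 CPM on polysomes and 529 ± 103 CPM in total RNA. Cd274, the checkpoint ligand PD-L1, had 236, 273 and 408 CPM on polysomes and 716, 846 and 1151 CPM in total RNA (log2 -1.58 ± 0.15, adjusted p = 7.46e-05, edgeR). Dendritic cell transcription factors also lay on both sides: Batf3 had a log2 difference of 2.18 ± 0.29 and Irf4 of -1.92 ± 0.20.

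Among surface and cytoskeletal genes, 11 of 20 integrins and adhesion receptors were called lower and 3 higher (median -0.61), or 13 and 5 without pool F and 8 and 6 with the gene-wise factors. Itgal, the alpha chain of LFA-1, averaged 37.9 ± 10.9 CPM on polysomes and 108 ± 15.5 CPM in total RNA, whereas Itgb7, a partner of the alpha E and alpha 4 chains, averaged 404 ± 130 CPM on polysomes and 156 ± 43.8 CPM in total RNA. Of 28 Fc, lectin and pattern receptors tested (Cd209e did not pass the filter), 5 (17.9%) were called higher and 8 (28.6%) lower (median -0.10). Over all protein-coding genes the shares were 18.6% and 18.9%. The lower calls of these receptors ranged from 3 without pool E to 11 without pool F, when 11 were higher. Fcer1g, the signalling chain shared by Fc receptors, averaged 974 ± 170 CPM on polysomes and 273 ± 30.01 CPM in total RNA. The actin cytoskeleton was split evenly, 13 higher and 13 lower of 34 (median -0.03). Actb had 25420, 27490 and 23800 CPM on polysomes and 7555, 6972 and 7934 CPM in total RNA (log2 1.77 ± 0.16), and the myosin light chain Myl6 was also higher (log2 3.16 ± 0.18). Other cytoskeletal genes were lower. Wasf2, of the WAVE complex, averaged 20.6 ± 8.71 CPM on polysomes and 147 ± 3.04 CPM in total RNA, and Vcl, which encodes vinculin, 12.1 ± 5.90 CPM on polysomes and 70.5 ± 6.27 CPM in total RNA.

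Of 11 mRNAs with well-known translational control elements, 3 were called higher and 3 lower (median 0.01), or 1 and 2 without pool E. The iron-responsive ferritin mRNAs differed from each other: Fth1, the heavy chain, had 2648, 2296 and 3063 CPM on polysomes and 7188, 8205 and 7932 CPM in total RNA (log2 -1.55 ± 0.17, adjusted p = 0.000137, edgeR), whereas Ftl1, the light chain, had 4998, 4211 and 4807 CPM on polysomes and 4665, 5001 and 4445 CPM in total RNA (log2 -0.01 ± 0.16). Oaz1, the antizyme that is read through a frameshift, averaged 706 ± 59.3 CPM on polysomes and 231 ± 13.1 CPM in total RNA. Stress response mRNAs numbered 8 higher and 4 lower of 24 (median 0.07), and 13 and 8 without pool F. Atf4, whose upstream reading frames delay initiation until eIF2 is phosphorylated, had 359, 448 and 295 CPM on polysomes and 188, 203 and 174 CPM in total RNA (log2 0.94 ± 0.16, adjusted p = 0.00173, edgeR). Hsp90b1, the endoplasmic reticulum chaperone GRP94, had 3882, 7561 and 3477 CPM on polysomes and 787, 821 and 861 CPM in total RNA (log2 2.50 ± 0.24). The sensor kinase Ern1, known as IRE1, and the factor Xbp1 it splices were lower, with log2 differences of -1.38 ± 0.29 and -0.98 ± 0.25.

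Metabolic genes lay on both sides. Of 23 glycolysis and hypoxia mRNAs, 9 were called higher and 3 lower (median 0.13), or 10 and 7 without pool F. Ldha, lactate dehydrogenase A, averaged 1767 ± 289 CPM on polysomes and 663 ± 34.5 CPM in total RNA. Hif1a, the oxygen-sensitive transcription factor, had 64.5, 35.2 and 63.6 CPM on polysomes and 234, 228 and 242 CPM in total RNA (log2 -2.14 ± 0.21, adjusted p = 7.2e-05, edgeR). Of 25 cholesterol genes, 9 were called higher and 6 lower (median 0.25). Fdps, farnesyl diphosphate synthase, averaged 198 ± 39.6 CPM on polysomes and 72.0 ± 9.25 CPM in total RNA. Lysosomal genes numbered 10 higher and 8 lower of 36 (median 0.22), or 17 and 9 without pool F, and subunits of the vacuolar proton pump 8 higher and 1 lower of 17 (median 0.63), with 3 higher without pool E, 5 without pool G and 12 without pool F.

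Zinc finger genes, a large family of nuclear repressors with low mRNA levels, were called lower in 11 of 46 tested and higher in 0 (median -1.17), with 4 lower without pool E, 7 without pool G and 17 without pool F. The share called lower over all protein-coding genes was 18.9%, so these counts lie on both sides of it. That share is not matched for level: the list's median level over the 6 libraries was 2.55 CPM. Of protein-coding genes up to 3 CPM by that mean, 2.25% were called lower (median -0.48), and of those from 3 to 10 CPM, 12.6%. The other 10 listed genes did not pass the filter. Zfp62 had 12.5, 11.4 and 10.7 CPM on polysomes and 42.1, 36.8 and 44.1 CPM in total RNA (log2 -1.84 ± 0.22, adjusted p = 0.000292, edgeR). Mitosis and replication genes numbered 10 higher and 8 lower of 35 (median 0.13), or 6 and 6 without pool E, with Cdk1, the mitotic kinase, at 127 ± 35.2 CPM on polysomes and 35.7 ± 6.44 CPM in total RNA. Replication-dependent histones, whose mRNAs lack a poly(A) tail, were low in all libraries: their summed level was 210 to 317 CPM on polysomes and 93.2 to 133 CPM in total RNA, and 6 of 23 tested were called higher and 0 lower (median 1.27), or 3 and 0 without pool E.

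RNAs annotated as noncoding were measured as a comparison, and whether ribosomes bind them was not tested. Of 603 lncRNA genes tested, 48 were called higher and 28 lower, where 18.6% and 18.9% of protein-coding genes were. Their median was -0.02 and that of protein-coding genes -0.21, so the lncRNAs that passed the filter were not lower by this median. Pool G had 9730 noncoding models with a count on polysomes and 17162 in total RNA, against 942 to 3715 in pools E and F. The part of pool G, and of the lncRNAs that did not pass, was not tested. On the list of nuclear and snoRNA host RNAs, 15 of 19 passed the filter, with 3 called higher and 2 lower (median 0.40). Xist, which stays on the inactive X chromosome, had 24.3, 154 and 30.8 CPM on polysomes and 293, 369 and 392 CPM in total RNA (log2 -2.86 ± 0.59, adjusted p = 0.0194, edgeR). That call was lost without the filter on low counts (adjusted p = 0.382), with all 12 LCH libraries (adjusted p = 0.116) and with the gene-wise factors (adjusted p = 0.0972, edgeR). Neat1, a nuclear paraspeckle RNA, had 99.8, 353 and 95.7 CPM on polysomes and 381, 465 and 431 CPM in total RNA (log2 -1.51 ± 0.35, adjusted p = 0.015, edgeR). Malat1, a nuclear speckle RNA, had 308, 2313 and 387 CPM on polysomes and 227, 253 and 332 CPM in total RNA, and was not called (adjusted p = 0.337, edgeR). With any 1 pool left out Malat1 was called higher, at 0.33 on the log2 scale without pool F and 1.72 or 1.84 without pool E or G. In all 3 genes the pool F polysome library, in which 65.1% of counts were on the 4 genes left out, was the highest polysome library. Whether nuclear RNA entered that library's fraction was not tested. Snhg8, a snoRNA host RNA, was higher (log2 2.40 ± 0.35).

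Some markers of other cell types also differed between the fractions. Of 19 neutrophil and granulocyte markers, 8 were called higher and 1 lower (median 0.69), or 12 and 1 without pool F. S100a9, a calcium-binding protein abundant in neutrophils, had 943, 1200 and 603 CPM on polysomes and 104, 92.4 and 82.9 CPM in total RNA (log2 3.25 ± 0.21, adjusted p = 9.56e-06, edgeR). Ear1, an eosinophil ribonuclease, had no count in any polysome library and 58 counts over the total RNA libraries. Of 10 mast cell and basophil markers, 6 passed the filter and 3 were called higher and 0 lower (median 0.45), among them the basophil protease Prss34 at 33.1 ± 13.4 CPM on polysomes and 5.64 ± 1.77 CPM in total RNA. Of 17 macrophage and monocyte markers, 3 were called higher, the C1q chains C1qa and C1qb and Apoe, and 4 lower (median -0.34), shares near those over all protein-coding genes. That median was 0.03 without pool F and 0.07 without the pool block. Of the 3 lymphocyte and plasmacytoid markers tested, Bst2, which is also interferon-stimulated, was called higher, and none of the 4 erythroid and stromal markers was called in either direction (edgeR). The part of these cells in the other results was not tested.

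Some of the largest differences at 10 CPM or more lay outside the lists. On the high side was Tmem160, a mitochondrial membrane protein, with 263, 454 and 216 CPM on polysomes and 12.3, 13.3 and 11.2 CPM in total RNA (log2 4.59 ± 0.22). Polr2l, a small subunit shared by the RNA polymerases, had a log2 difference of 4.24 ± 0.22. S100a13, a small calcium-binding protein, averaged 196 ± 80.2 CPM on polysomes and 10.2 ± 1.93 CPM in total RNA. Usp50 (log2 4.87 ± 0.48) overlaps Usp8 on the other strand, and Exosc6 had 140 to 400 counts on polysomes and none in total RNA inside the Aars gene, so both are uncertain. At the other end, Atp7a, a copper pump, had 0.293, 0 and 0.902 CPM on polysomes and 24.96, 29.7 and 26.9 CPM in total RNA (log2 -5.79 ± 0.53, adjusted p = 5.5e-05, edgeR). Map3k3, an upstream kinase of the MAPK cascades, had 1.76, 2.14 and 1.42 CPM on polysomes and 35.0, 37.1 and 27.8 CPM in total RNA (log2 -4.25 ± 0.31). B3gnt2, a glycosyltransferase, had no count in any polysome library and 7936 counts in total RNA, at least 589-fold lower against a floor of 3 counts over the polysome group. B3gnt2 overlaps other models on both strands, so its value is uncertain too. Chtf8 was lower (log2 -4.48 ± 0.73, adjusted p = 0.0803 without pool F, edgeR) and the model Derpc, which overlaps it on the same strand, higher: together they averaged 37.9 ± 4.31 CPM on polysomes and 56.6 ± 4.54 CPM in total RNA, a much smaller difference. Among the 9420 tested protein-coding genes that overlap no other tested model, 17.9% were called higher and 18.8% lower, near the shares over all genes.

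Whether the level of an mRNA went with its place depended on how level was measured. By the mean level in total RNA alone the Spearman correlation across 12128 protein-coding genes was 0.02, and -0.06, -0.19 and -0.05 within pools E, F and G. Total RNA is also the denominator of the ratio, so errors in total RNA push this correlation down. The median log2 difference was -0.18 in genes up to 3 CPM in total RNA and 0.06 in the 93 genes above 1000 CPM, of which 31.2% were called higher and 33.3% lower. By the mean of all 6 libraries, which contains the polysome values and so raises genes that are high on polysomes, the median log2 difference was -0.48 in genes with a mean of up to 3 CPM, -0.11 between 30 and 100 CPM and 1.21 in the 161 genes above 1000 CPM. Of these 161, 65.8% were called higher and 11.8% lower. The Spearman correlation across genes was 0.23 by that measure, and 0.16, 0.04 and 0.15 within pools E, F and G over genes with a count in both fractions. The genomic span of a gene from its first to its last annotated base, introns included, went with its place under either measure of level. Genes up to 2000 bases long had a median of 1.44, with 52.9% called higher and 4.15% lower among 289. Genes over 100000 bases had a median of -0.65, with 3.67% called higher and 28.7% lower among 1607. The correlation across genes was -0.36, and -0.40, -0.37 and -0.36 within the pools. Genes are not independent replicates, and span and the mean level of the 6 libraries themselves correlated at -0.09.

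Among genes over 30 CPM in total RNA the median was 1.17 up to 2000 bases and -0.81 over 100000 bases, and among less abundant genes 1.46 and -0.56. Ribosomal protein genes had a median span of 3243 bases, nuclear OXPHOS genes 7456 bases, mRNA decay regulators 40032 bases and integrins 59164.5 bases, so the lists above differ in span as well as in function. The part of span, of transcript length and of the number of ribosomes an mRNA can hold in these lists was not tested, and gene-level counts do not separate them. Mitochondrial mRNAs had a median span of 784 bases and were low on polysomes, but they are translated on the mitochondrion's own ribosomes and are not comparable in this respect.

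**Figure D5:**
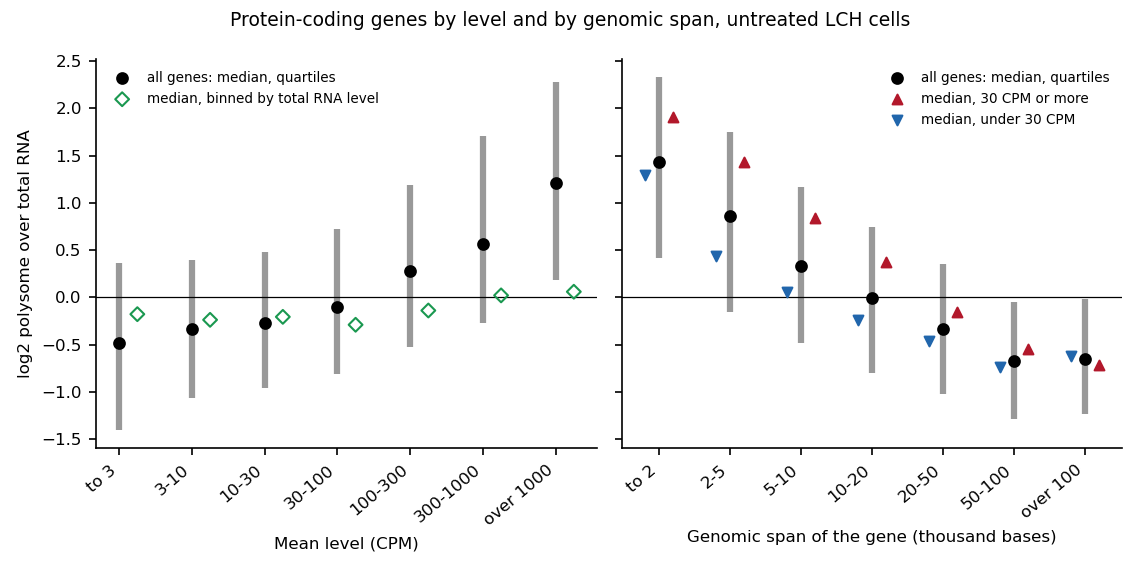
Black points are median log2 polysome over total RNA of protein-coding genes in bins of mean level (left, CPM) and of genomic span (right, in kilobases), with grey bars from the lower to the upper quartile. Green diamonds are the medians with genes binned by total RNA level alone, and red and blue triangles split the span bins at a mean of 30 CPM over the 6 libraries. The medians go from -0.48 to 1.21 with the mean of 6 libraries, from -0.18 to 0.06 with total RNA level and from 1.44 to -0.65 with span.

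The same comparison in LCH cells treated with the BRAF-V600E inhibitor gave mostly the same genes. Of 2249 protein-coding genes called higher in untreated cells and tested in both, 1628 were also called higher in treated cells. That is 72.4% of the untreated calls and 95.9% of the 1698 treated calls. Of 2296 called lower, 1817 were also called lower, which is 79.1% of the untreated and 79.2% of the 2295 treated calls. None was called in the opposite direction. A direct test of the difference between treated and untreated cells, with each culture as a block, called 0 of 16852 genes (0.0%, edgeR), with 282 at an unadjusted p under 0.05 and 3 called by DESeq2. Without pool F, 17 were called. On simulated data this test recovered only a small part of the changes put in, so the absence of calls does not show that treated and untreated cells were alike. In the treated libraries of pool G, 10 genes took 34.5% of polysome counts and 28.1% of total RNA counts outside the genes left out, against 8.10% to 9.20% in treated pools E and F. The median gene-by-gene difference of protein-coding genes was -0.14 on the log2 scale. The same measure was -0.50 for ribosomal protein mRNAs, -0.31 for nuclear OXPHOS mRNAs and -0.21 for mitochondrial mRNAs, and is read against it. Ribosomal protein mRNAs had a median of 1.79 in treated cells and 2.35 in untreated cells in that fit. Nuclear OXPHOS mRNAs had 2.01 and 2.47, and mitochondrial mRNAs -2.02 and -1.54.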

How the data were processed

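Polysome-bound and total RNA were sequenced from LCH BMDCs. Per the submitters' processing notes, Salmon and DESeq2 were used on build mm9, with roles and versions not given in the sources used here. Raw counts per gene, as deposited, were the main values. The authors also deposited normalized counts (a signal scaled separately for each gene and library), used only for 1 alternative. The count table has 0 unmapped value columns.

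Rn18s, Lars2, mt-Rnr1 and mt-Rnr2 were left out before scaling. Genes were filtered (filterByExpr, minimum count 10), scaled by TMM and tested by edgeR 4.0.16 (quasi-likelihood, R 4.3.3) with pool as a block, with the Benjamini-Hochberg adjustment taken across the 13452 genes that passed. SE is the log2 difference over the square root of F. Same-pool libraries deviated together (correlations of deviations 0.409, 0.200 and 0.604 for pools E, F and G), and the series' text calls the fractions paired. Pools E and F were hardly told apart: polysome pool E correlated at 0.321 with total RNA pool F, and polysome pool F at 0.142 with total RNA pool E. Deviations from a mean of 3 libraries are not independent, so this check is weak for pools E and F. On simulated data, p-values of unchanged genes passed at about their nominal rate. Unchanged genes made up 20.9% of calls in the polysome test and 57.0% in the test of treated against untreated cells. Both shares are more than the threshold allows, so single calls near the threshold are weak. For the polysome test, 90 of 12574 genes were changed by a log2 of 1 and 92 by 2. The test recovered 20% of the former and 58.7% of the latter. In the measured libraries 35.8% of genes were called, and whether the shares hold there was not tested.

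The members and the 41 gene lists were chosen with earlier results of these data known; 1152 of 1153 entries matched. Genes named were the 12 largest rises and 12 largest falls at a mean of at least 10 CPM without overlap, the 4 smallest p of each list, Tnf and Braf (185 in all). A further 47 were singled out after their values were seen, among them Il12b, Il1a, Il1b, Il6, Il23a, Csf2, Ccl3, Tlr4, Ly96, Rps27, Rpl10, Eef1a1, Eef2, Pabpc1, Atp5b, Ndufa3, Cox7c, Zfp36, Ftl1, Actb, Wasf2, Vcl, Malat1, Xist and Ciita. Some listed genes are not reported by name here. Protein size was planned and not analysed here; the genomic span in the deposited table was used in its place. Start windows came from RefSeq. Strand use in counting is not stated, so overlapping and antisense genes are uncertain.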

Additional observations from a re-analysis of the deposited data

How the results depend on the processing

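Of the 232 named genes, 214 to 230 kept their direction and side of the threshold under each of the 12 alternatives. Genes called numbered 3412 to 6622 with 1 pool left out (4818 with all), with 1617 to 3085 protein-coding genes called higher and 1617 to 3196 lower. Without pool F, whose polysome library is the shallowest, the counts were the highest. Without the replicate block, 4891 genes were called (2405 protein-coding higher and 2185 lower), and Il27, Ccl3, Zfp36, Atp5b, Neat1 and Apoe were not called. Without the filter on low counts the protein-coding median moved to -0.52. With the authors' gene-wise factors, an alternative chosen after seeing the data, Atp5b (1.53), Hmgb2 (-0.31) and Pabpc1 (0.26) reversed, and the cause was not tested. The correlation with mean level was 0.016 with level taken from total RNA only, an alternative chosen after seeing the data, against 0.23 with the mean of 6 libraries. That mean contains the polysome values, and total RNA is the ratio's denominator, so neither measure is independent of the ratio. The correlation with genomic span was -0.16 without the filter and -0.42 with libraries thinned to the shallowest, and the cause was not tested. The test of inhibitor-treated against untreated cells called 3 genes by DESeq2, 3 without the filter, and 0 to 17 with 1 pool left out (17 without pool F, 1 without pool G). The 3206636 counts of the pool F polysome library limit what low genes can show.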
